A study of Homo sapiens with 4 samples.

Results

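The 10 genes SEMA3A, SEMA3C, SEMA3D, SEMA3E, NRP1, NRP2, PLXNA1, PLXNA2, PLXNA4 and PLXND1 were examined for sites of MEIS1 and MEIS2, transcription factors, in hNSC, a culture of human neural stem cells. They were chosen by name from a list, out of 20163 protein-coding genes of GENCODE 44 on GRCh37. The choice was made with earlier results of these data known. Their sites were the reproducible MEIS sites whose summit, the base of highest signal, lay in the gene body extended by 250 kb on each side. Of 5169 sites in all, 26 met this rule, and none was counted for more than 1 of the 10 genes.

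The data came from chromatin immunoprecipitation with sequencing (ChIP-seq) of an untreated commercial hNSC culture grown in serum-free medium. There were 2 MEIS ChIP samples and 2 Input samples, Input being sheared chromatin without immunoprecipitation. A mixture of 2 antibodies, anti-MEISa (K830) and anti-MEIS1 (K844), was used, so a peak does not tell which MEIS protein was bound. The authors called 36796 peaks in replicate 1 and 47449 in replicate 2 against Input and kept the peaks that ranked alike in both by the irreproducible discovery rate (IDR, at most 0.01). The files hold peaks, with neither read counts nor expression, so that the depth is unknown. The labelled cell type could not be checked against its markers, and these files do not measure the activity of the genes. The study also measured expression by RNA sequencing in hNSC with altered MEIS1 or MEIS2, which was not used here. The study's methods describe 2 batches of cells processed side by side, the labels do not tie a replicate to a batch, and both replicates were of 1 untreated condition, so values are given for each replicate and no test between groups was possible.

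Class 3 semaphorins are secreted proteins that steer growing axons, migrating neurons and endothelial cells. Most of them bind a neuropilin, a co-receptor with a short cytoplasmic tail, which pairs with a plexin, the receptor that passes the signal into the cell through a domain acting on small GTPases of the Ras family. SEMA3E differs in that it can bind PLXND1 without a neuropilin. MEIS proteins are homeodomain factors of the TALE class that bind the core TGACAG and often pair with PBX proteins, which extends the bound sequence. They are known from brain, limb, eye and blood development.

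The sequences of the strongest site of each gene are shown first. The 8 genes with a site fell into those with and those without a MEIS core in the 500 bp around the summit. Sequences are the plus strand of GRCh37, 5′ to 3′, and 60 bases long. At 5 genes they are centred on the TGACAG nearest the summit, in capitals, which reads CTGTCA where it lies on the minus strand.
NRP1 chr10:33435226-33435285: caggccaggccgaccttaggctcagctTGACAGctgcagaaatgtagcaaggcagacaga
SEMA3A chr7:84041378-84041437: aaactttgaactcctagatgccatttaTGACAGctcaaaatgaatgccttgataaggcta
SEMA3D chr7:84696795-84696854: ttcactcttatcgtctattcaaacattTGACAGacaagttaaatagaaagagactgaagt
SEMA3E chr7:83075834-83075893: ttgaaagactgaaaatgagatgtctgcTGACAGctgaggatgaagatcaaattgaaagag
PLXNA1 chr3:126933823-126933882: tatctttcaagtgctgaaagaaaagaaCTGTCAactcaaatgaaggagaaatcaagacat
In SEMA3A, SEMA3D, SEMA3E and PLXNA1 the centre of this core lay between 0.5 bp and 5.5 bp from the summit, so that the 60 bases hold the summit too. At NRP1 it lay 168.5 bp away. The strongest sites of SEMA3C, NRP2 and PLXNA2 had no TGACAG in the 500 bp around the summit, and the bases around the summit itself are given for them.
SEMA3C chr7:80693980-80694039: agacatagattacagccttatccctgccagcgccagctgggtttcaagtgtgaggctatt
NRP2 chr2:206563657-206563716: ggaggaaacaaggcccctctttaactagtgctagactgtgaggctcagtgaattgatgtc
PLXNA2 chr1:208241945-208242004: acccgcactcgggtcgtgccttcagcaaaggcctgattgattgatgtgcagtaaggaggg
Thus 5 of the 8 strongest sites held a MEIS core in the window and 3 did not.

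SEMA3A, a repellent for many kinds of axons, had 4 sites (ENSG00000075213, chr7:83585093-84122040, minus strand). The strongest of them lay at chr7:84040583-84042392, ranked 338 of 5169 by −log10 p, and reached a −log10 p of 261 (replicate 1) or 186 (replicate 2). Its fold enrichment over input was 26.7 and 37.4, pairs of values being given here and below as replicate 1, then replicate 2. It lay inside the gene body but 217 kb upstream of the start of the canonical transcript, between that start and alternative starts annotated up to 298 kb upstream. The second site, chr7:83835097-83837130, lay 12.5 kb upstream of the canonical start, with a −log10 p of 136 and 93.9. Of all 26 sites this was the nearest to the canonical start of its gene, and its core nearest the summit was 1.5 bp away. Where 1 −log10 p is given for a site, it is the lower of the replicates. The other two were chr7:84267085-84268140, 443 kb upstream with a −log10 p of 51.8, and chr7:83886872-83887895, 63.2 kb upstream with a −log10 p of 22.2. Thus all 4 sites of SEMA3A were upstream of the canonical start, and of all canonical starts that of SEMA3A was the closest to each.

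SEMA3C, a semaphorin that can attract cortical axons and that is known from the outflow tract of the heart, also had 4 sites (ENSG00000075223, chr7:80371854-80551675, minus strand). The strongest, chr7:80693168-80694719, lay 146 kb upstream of the canonical start, outside the gene. Its −log10 p was 108 and 173, with a fold enrichment of 14.3 and 31.0 and rank 665. A site in intron 2, chr7:80470655-80472052, had a −log10 p of 55.1 and 43.0. A site at chr7:80658356-80659968, 111 kb upstream, differed most between replicates in SEMA3C, with a −log10 p of 21.2 in replicate 1 against 87.1 in replicate 2.

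The fourth site of SEMA3C, chr7:80351185-80352547, lay 20.2 kb beyond the end of the gene and had a −log10 p of 23.9 and 24.6. It was nearer to the start of CD36, at 83.7 kb, than to that of SEMA3C, at 197 kb. It was the only one of the 26 sites with the composite PBX-MEIS consensus, which was found in 4.93% of all sites. The composite is shown in capitals, in the plus-strand reading of a minus-strand match.
SEMA3C composite chr7:80351657-80351716: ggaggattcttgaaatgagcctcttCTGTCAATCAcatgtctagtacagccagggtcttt
Its last bases read from the minus strand are TGACAG, so the core and the composite are counted at 1 place here, 1.5 bp and 3.5 bp from the summit by their centres.

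SEMA3D, a semaphorin known from neural crest and vessels, had 3 sites, all in introns of its canonical transcript (ENSG00000153993, chr7:84624869-84816372, minus strand). The strongest, chr7:84696099-84697581 in intron 7, ranked 359, with a −log10 p of 175 and 191 and a fold enrichment of 16.1 and 32.3. It held 2 cores. The site in intron 9 (chr7:84682836-84684163) was weaker, with a −log10 p of 17.0 and 36.5, as was that in intron 15 (chr7:84644533-84645221), with 14.4 and 25.1. Neither had a TGACAG. SEMA3E, the ligand of PLXND1, had 1 site, chr7:83075351-83076147 in intron 4 of its gene (ENSG00000170381, chr7:82992554-83278455, minus strand). Its −log10 p of 29.4 and 30.9 were close to each other, and its fold enrichment was 5.82 and 10.4.

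NRP1, a co-receptor of semaphorins and of vascular endothelial growth factor, had 5 sites, among them the strongest of all 26 (ENSG00000099250, chr10:33466420-33625190, minus strand). This site, chr10:33434361-33435968, ranked 62 of 5169, with a −log10 p of 650 and 950.5. Its fold enrichment over input was 47.8 and 117, above all the other sites at the 10 genes in both replicates. It lay 31.3 kb beyond the end of NRP1, and it was almost equally far from the canonical starts of ITGB1, at 188 kb, and NRP1, at 189 kb. ITGB1 encodes the integrin beta 1 chain. In the 300 bases chr10:33434987-33435286, which hold the summit, an AP-1 consensus and 1 of the 3 cores of this site are in capitals, and no core is at the summit.
NRP1 site chr10:33434987-33435286: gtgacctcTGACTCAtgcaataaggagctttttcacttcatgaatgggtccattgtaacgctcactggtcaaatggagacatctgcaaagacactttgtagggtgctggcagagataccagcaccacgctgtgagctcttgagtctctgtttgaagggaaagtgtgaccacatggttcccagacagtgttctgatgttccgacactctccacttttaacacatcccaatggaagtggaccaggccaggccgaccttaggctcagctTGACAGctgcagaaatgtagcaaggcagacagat

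The other sites of NRP1 were weaker. The site in intron 2, chr10:33594940-33596314, 28.1 kb downstream of the start, had a −log10 p of 33.1 and 34.6. At chr10:33771494-33773243, upstream of NRP1 by 149 kb, the −log10 p was 29.4 and 91.3, and the fold enrichment was 4.88 and 20.6, the largest ratio of replicates among the 26 sites at 4.22. At chr10:33670362-33671723, 47.2 kb upstream, it was higher in replicate 1, at 36.3, than in replicate 2, at 21.2. The fifth site, chr10:33269307-33271446, lay 353 kb downstream of the start of NRP1 and 23.8 kb from the canonical start of ITGB1, inside the annotated body of ITGB1, so that of the 5 sites 2 were nearer to the canonical start of ITGB1.

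NRP2, a co-receptor of SEMA3C and SEMA3F, likewise had 5 sites, none of them strong (ENSG00000118257, chr2:206546714-206662857, plus strand). The strongest, chr2:206563250-206564139 in intron 2, ranked 1858, with a −log10 p of 40.6 and 54.0 and a fold enrichment of 6.47 and 15.1. It held 2 AP-1, 2 TEAD and 1 SOX consensus and no MEIS core. Intron 2 held a second site, chr2:206570188-206572220, with a −log10 p of 13.8, and intron 3 held chr2:206584681-206587629, with 24.3. The summits of this last site in the 2 replicates were 1483 bp apart, against a median of 11.5 bp over the 26 sites, so the replicates do not place it alike. Upstream of NRP2 lay chr2:206507405-206508433, at 39.4 kb with a −log10 p of 13.2, and chr2:206360135-206361862, at 187 kb with 23.97. The latter was in intron 20 of the neighbouring gene PARD3B, a polarity gene, and had cores 5.5 bp and 3.5 bp from the summit on either side. By canonical start, NRP2 was the closest gene to all 5.

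Among the plexins, PLXNA1 had 1 site and PLXNA2 had 3, while PLXNA4 and PLXND1 had none. All are receptors of class 3 semaphorins, PLXNA1, PLXNA2 and PLXNA4 together with neuropilins. The site of PLXNA1 (ENSG00000114554, chr3:126701536-126756232, plus strand) was chr3:126933343-126934377, with a −log10 p of 46.2 and 36.7 and a fold enrichment of 6.92 and 11.95. It lay 178 kb beyond the end of PLXNA1, and the closest canonical start was that of PRR23E, at 21.9 kb. Its window held 4 cores, the largest number among the 26 sites, of which 2 are in capitals in the 300 bases centred on the summit.
PLXNA1 site chr3:126933708-126934007: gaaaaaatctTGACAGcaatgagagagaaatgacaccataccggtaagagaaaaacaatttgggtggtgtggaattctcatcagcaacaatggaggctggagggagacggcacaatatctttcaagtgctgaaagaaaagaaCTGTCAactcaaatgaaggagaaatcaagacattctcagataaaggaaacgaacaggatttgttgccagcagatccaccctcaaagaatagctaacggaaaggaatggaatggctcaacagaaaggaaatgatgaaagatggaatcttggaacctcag

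The 3 sites of PLXNA2 (ENSG00000076356, chr1:208195587-208417729, minus strand) were all intronic and all below the median strength of all sites. At chr1:208241005-208242379 in intron 12, the −log10 p was 19.3 and 51.1, and the fold enrichment was 4.77 and 13.5. This site was nearer to the canonical start of CD34, at 157.5 kb, than to that of PLXNA2, at 175.8 kb. At chr1:208371386-208372329 in intron 3, replicate 1 was the higher, with a −log10 p of 46.9 against 17.0 and a fold enrichment of 8.38 against 6.61. At chr1:208279152-208280385 in intron 4, the −log10 p was 16.5 and 18.9. The order of the 3 sites therefore depended on the replicate.

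**Figure D1:**
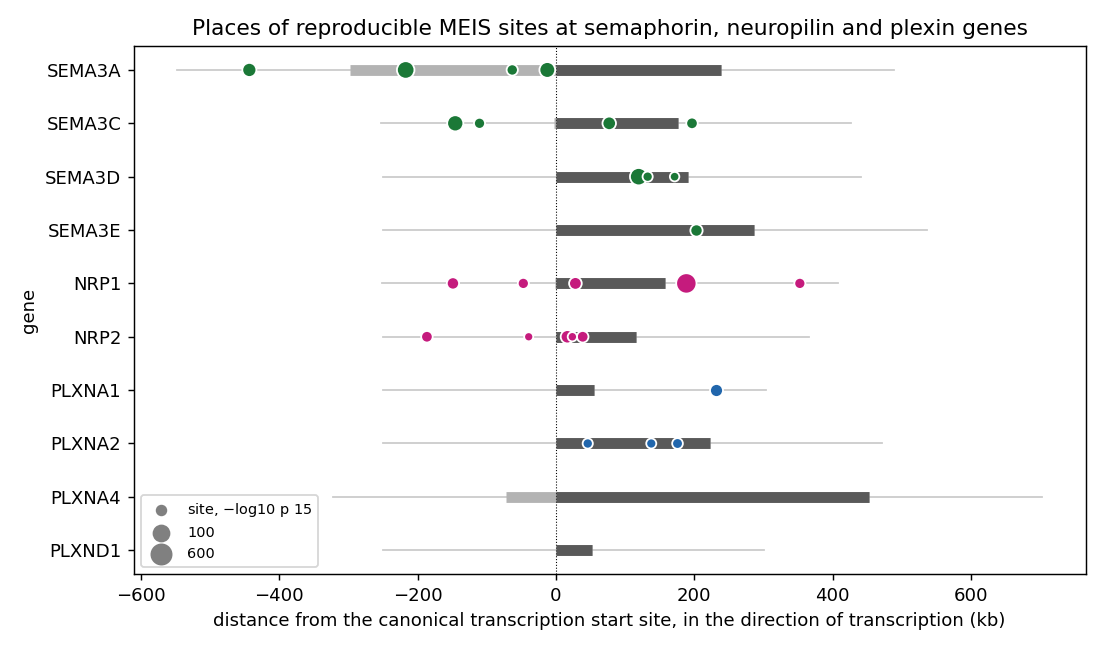
Reproducible MEIS sites of each gene by distance of the summit from the canonical start (kb, positive in the direction of transcription). Dark bars are canonical transcripts, light bars the rest of the gene body, thin lines the windows, and the area of a point grows with the log of its −log10 p; no point lies at 0 and the nearest is 12.5 kb away, at SEMA3A.

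By role, the 4 ligands had 12 sites in windows that cover 3.001 Mb, or 3.999 sites per Mb, the overlap of the SEMA3A and SEMA3E windows being counted once. The 2 neuropilins had 10 sites in 1.27 Mb, or 7.84 per Mb. The 4 plexins had 4 sites in 2.85 Mb, or 1.40 per Mb, with none at PLXNA4 and PLXND1. The density over genes of like length was not computed, so these values are not read as high or low. Windows this wide reach neighbouring genes, and lying near a gene does not show that a site acts on it.

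To set these counts beside other genes, each gene was ranked among the 200 protein-coding genes closest to it in length, since long genes have longer windows. At least 1 site was found at 8 of the 10 genes, against 64.0% of the genes of their length classes and 47.5% of all protein-coding genes. The count of genes with a site is therefore not far above that of long genes in general. The median number of sites was 3 per gene, against 1 over the genes of their length classes, whose medians ran from 0 to 2 between classes. The median percentile was 84.5, against 34 over all genes. That 34 covers genes of all lengths, most of them without a site and tied at a low rank. It is therefore not the middle value for genes as long as these, which was not computed. Of the 10 genes, 7 had more sites than the median of their length class. Since the genes were chosen with earlier results of these data known, these comparisons and the ranks below only describe them.

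The neuropilins stood highest, NRP2 at the 99th percentile and NRP1 at 97.5, so 2 of 10 genes reached the 95th percentile, against 4.97% of all genes. SEMA3C followed at 94.5, a place that crossed the threshold with 100 genes of like length (96) and with a 500 kb extension (95), then SEMA3D at 87.5, PLXNA2 at 86.5 and SEMA3A at 82.5. PLXNA1 stood at 66.5 and SEMA3E at 44.75. PLXND1 stood at 24.75 and PLXNA4 at 10.25, PLXNA4 having no site where the median of equally long genes was 2. The places at the top depended on the weak sites and on the window. With extensions of 100 kb and 500 kb, NRP1 stood at 96.75 and 98.5 and NRP2 at 99.5 and 97.25. In the gene bodies alone, NRP1 had 1 site and stood at 85.25, whereas SEMA3D at 98, PLXNA2 at 98.25 and NRP2 at 99.75 were above the 95th percentile. With sites of an IDR of 0.001 or less, NRP2 kept 1 of its 5 sites and stood at 75.25, NRP1 kept 3 and stood at 93.5, and SEMA3C alone passed, at 95.75. PLXNA2 had no site left, and its percentile was 25. Taking as many of the strongest peaks of replicate 1 alone, SEMA3C stood at 98.5, NRP2 had 3 sites and stood at 91.5, SEMA3D had 1 and stood at 52.25, and SEMA3E had 2 and stood at 67.0. With those of replicate 2 alone, SEMA3C stood at 98.25, PLXNA2 had 1 and stood at 51.75, and PLXND1 had 1 and stood at 64.5. NRP1 stood at 97.25 with either replicate alone, and NRP2 at 100 with replicate 2.

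**Figure D2:**
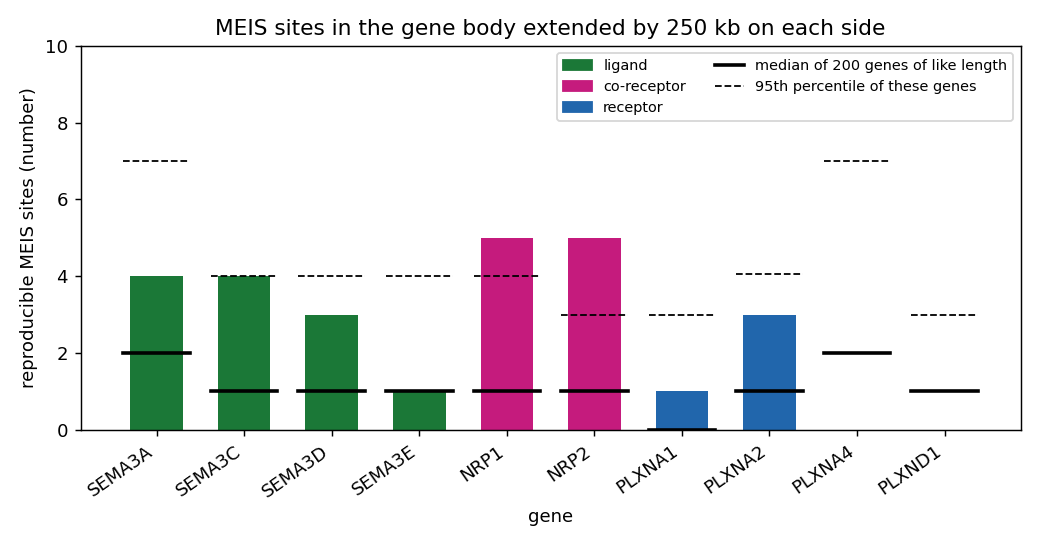
Number of reproducible MEIS sites per gene (bars, coloured by role) with the median and the 95th percentile of the 200 genes nearest in body length (solid and dashed lines). NRP1 and NRP2 have 5 sites each, above the dashed lines at 4 and 3, and PLXNA4 and PLXND1 have none.

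Within the gene bodies there were 15 sites, at 7 of the 10 genes, against 30.5% of the genes of like length with a site in the body. The other 11 lay in the flanks. Of the 15, 12 were in introns of the canonical transcript of their gene, none was in an exon, and the remaining 3 were the SEMA3A sites between its alternative and canonical starts. No site lay within 5 kb of the canonical start of its gene, where 2.41% of all genes had one. The median distance was 135 kb and the longest was 443 kb, with 10 sites upstream and 16 downstream of the start. For 21 of the 26 sites the gene itself had the nearest canonical start, and for 5 another gene did.

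In strength the 26 sites were spread over the whole list. Their median −log10 p was 24.1, against 29.3 over all sites, and 12 of them were above that overall median. The strongest sites of NRP1, SEMA3A and SEMA3D were in the top 10% of all sites, or 11.5% of the 26. An IDR of 0.001 or less was reached by 13 of the 26 (50%), against 60.4% of all sites. The sites were wide, with a median of 1375 bp against 1086 bp.

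The fold enrichment was higher in replicate 2 in 24 of the 26 sites, as it was in 97.4% of all sites. The methods give alternative washes of the beads, with or without lithium chloride, and do not say which replicate had which, so a difference of wash cannot be told apart from a difference of replicate. The exceptions were the PLXNA2 site in intron 3, with a ratio of 0.789, and the NRP1 site 47.2 kb upstream, with 0.957. The median ratio of replicate 2 to replicate 1 was 1.79, against 1.80 over all sites. The −log10 p was higher in replicate 2 in 18 sites and in replicate 1 in 8, among them the 3 strongest sites of SEMA3A, and it was higher in replicate 2 in 64.2% of all sites.

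**Figure D3:**
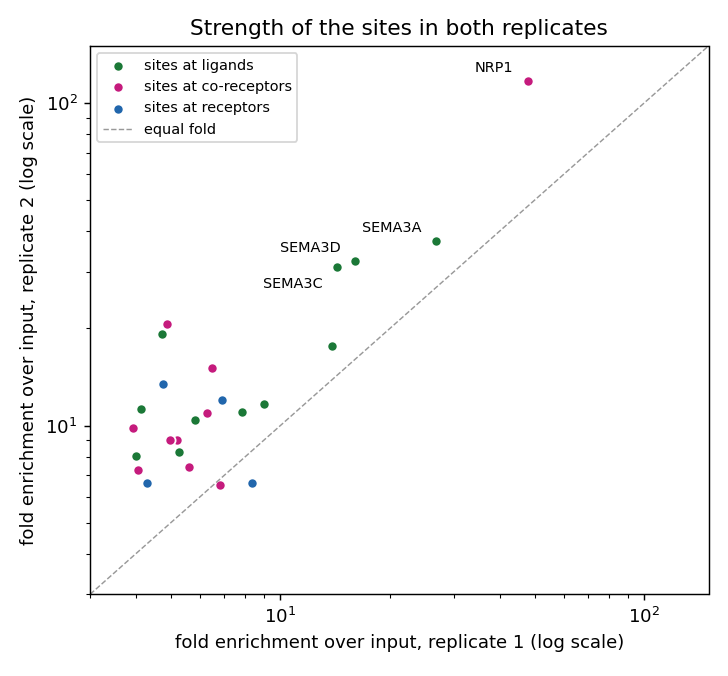
Fold enrichment over input of each of the 26 sites in replicate 1 and replicate 2, on log axes, coloured by the role of the gene, with the 4 strongest sites named by their gene. Only 2 points lie below the line of equal fold, and the NRP1 site, at 47.8 and 117, is apart from the others.

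Consensus sequences were searched on both strands of the 500 bp centred on each summit. TGACAG was present in 15 of the 26 sites (57.7%), against 58.3% of all sites. It was centred within 50 bp of the summit in 10 (38.5%), against 39.5%. The share of sites with the MEIS core was thus that of the series as a whole. By role, 6 of the 12 sites of ligands, 6 of the 10 sites of neuropilins and 3 of the 4 sites of plexins held it. At 8 of the 26 sites there were 2 or more cores, a larger share than the 18.7% of all sites. It rests on 8 sites, and no preference is read from it.

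The other consensuses were those of factor families of neural or general use. The SOX consensus (AACAAAG or AACAATG) was found in 10 sites, or 38.5% against 34.4% of all. GGAATG, bound by TEAD factors, was in 7, or 26.9% against 38.2%. TAATTA, bound by LHX-type homeodomain factors, was in 3, or 11.5% against 18.2%. TGANTCA, bound by AP-1, was in 6, or 23.1% against 19.2%. These shares rest on 3 to 10 sites each, and no preference is read from them. The sites of SEMA3D in intron 9, of NRP2 39.4 kb upstream and of PLXNA2 in intron 12 held none of the sequences searched.

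**Figure D4:**
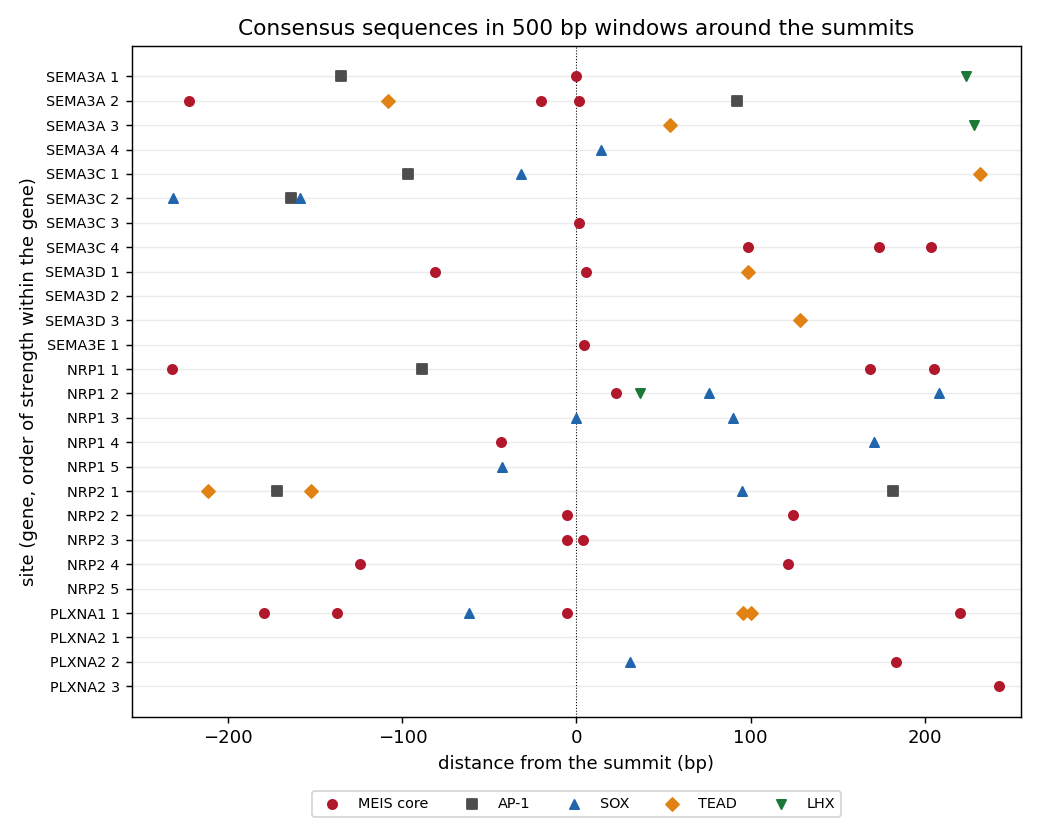
Places of the consensus sequences in the 500 bp around the summit of each of the 26 sites (rows, numbered by strength within the gene), as distance of their centre from the summit in bp. MEIS cores (circles) lie within 50 bp of the summit in 10 rows, and 3 rows are empty.

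The peak lists of the single replicates, called at a loose p-value of 0.01, held further peaks in the same windows. Replicate 1 had 146 peaks, of which 79 (54.1%, against 49.0% of all its peaks) overlapped a peak of replicate 2. Replicate 2 had 171, of which 78 (45.6%, against 37.99%) overlapped a peak of replicate 1. NRP2, NRP1 and SEMA3C again had many for their length, with replicate 1 percentiles of 99.5, 99.25 and 97.75 and replicate 2 percentiles of 99.25, 93.25 and 98.5. SEMA3D and PLXNA2 were different, with 3 reproducible sites each but lower percentiles by peaks. SEMA3D had 8 and 12 peaks, at percentiles of 36.75 and 56.5, and PLXNA2 had 9 and 16, at 40.25 and 69. PLXND1, which had no reproducible site, had 10 and 14 peaks, at percentiles of 70.0 and 80.75. PLXNA4 had 4 and 6 peaks, where genes of like length had medians of 13 and 18.

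**Figure D5:**
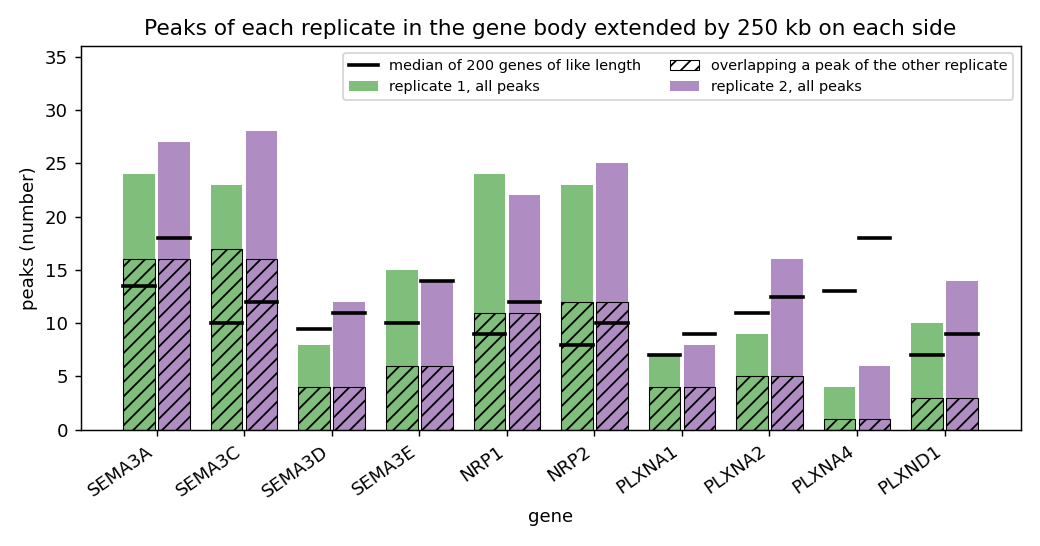
Number of peaks of each replicate in the window of each gene (bars), the part overlapping a peak of the other replicate (hatched) and the median of the 200 genes nearest in body length (lines). PLXNA4, with 4 and 6 peaks, is the furthest below its lines at 13 and 18.

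Among the replicate 1 peaks, 53 overlapped a replicate 2 peak but no reproducible site. The strongest by the lower replicate value was in intron 4 of SEMA3C, chr7:80453211-80454118, with a −log10 p of 61.2 and 95.1 and a fold enrichment of 8.53 and 20.4. The replicate 2 peak there, chr7:80453122-80455143, was wide and overlapped a second peak of replicate 1 as well, which had a −log10 p of 10.9. At PLXND1 (ENSG00000004399, chr3:129274057-129325519, minus strand), the strongest such peak was 218 kb upstream, with a −log10 p of 10.9 and 37.6, nearer to the canonical start of TMCC1. At PLXNA4 (ENSG00000221866, chr7:131808099-132333447, minus strand) the only one was 301 kb upstream, with 12.2 and 11.4, nearer to that of CHCHD3.

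At the canonical starts themselves, a peak within 5 kb was present at 5 of the 10 genes in replicate 1, against 26.9% of all genes, and at 4 in replicate 2, against 27.0%. SEMA3A, SEMA3D and PLXNA2 had one in both, against 15.9% of all genes. At SEMA3A, the peak chr7:83824250-83826042 of replicate 1 was weak, with a −log10 p of 6.46 and a fold enrichment of 2.74, while the overlapping peak of replicate 2 had 43.4 and 12.3. At SEMA3D, the peaks lay at different places, 4773 bp upstream in replicate 1 (−log10 p 5.10) and 1385 bp downstream in replicate 2 (−log10 p 6.41). At PLXNA2 they overlapped, with 2.19 and 4.01. NRP1 and NRP2 had one in replicate 1 alone, with 4.05 and 5.45, and SEMA3C in replicate 2 alone, with 4.32. None of these was among the reproducible sites.

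A list of 40 other genes of semaphorin signalling was counted in the same way. Of these, 18 (45.0%) had a site and 22 had none, against 47.5% of all protein-coding genes. The 95th percentile of their length class was reached by 3 of the 40, against 4.97% of all genes. The share with a site over genes of like length was not counted for this list, so it was not compared as the 10 genes were. The median percentile was 30.75. None of the other class 3 ligands, SEMA3B, SEMA3F and SEMA3G, had a site, and each is shorter than the shortest of the 10 genes above. Of the other plexins, 2 of 5 had one, and PLXNA3, the remaining class A plexin, had none. Of the membrane-bound semaphorins, 4 of 6 of class 4, 2 of 2 of class 5 and 1 of 4 of class 6 had one.

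The 5 genes of the list with the most sites were NRCAM, SEMA5A, DPYSL3, FYN and RRAS. NRCAM, a cell adhesion molecule that binds neuropilins, had 7 sites and stood at the 98th percentile. SEMA5A, a transmembrane semaphorin, had 7 at 96.5, and its strongest site had a −log10 p of 984, rank 28, above that of NRP1. RRAS, a Ras-family GTPase on which plexins act, had 3 at 96.75, none of them in its body, the strongest with a −log10 p of 25.4. DPYSL3, of the CRMP family that acts on the cytoskeleton downstream of semaphorins, had 3 at 91.75, the strongest with a −log10 p of 330.2. FYN, a kinase of the same pathway, had 3 at 85.5.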

How the data were processed

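The members, lists and measures were chosen with earlier results of these data known. Samples were 2 MEIS ChIP and 2 Input, grouped by their titles. Per the submitters' processing notes and the methods of the study, paired reads of 36 bp were trimmed with cutadapt 1.16, mapped to GRCh37 with Bowtie2 2.3.0, filtered by SAMtools 1.2 for mapping qualities of 30 or more, and freed of duplicates by Picard 2.15.0. Peaks were called by the authors separately for each replicate with MACS2 at a p-value of 0.01 (version not given in the sources used here), and both lists were compared with IDR 2.0.3.

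The deposited peak lists give a fold enrichment over input, which is a linear ratio, a −log10 p and a −log10 q for every peak, a scaled score, and the summit as another column. The deposited list of reproducible sites gives for each site a −log10 p, a −log10 IDR, which is a score of reproducibility, and a scaled score that was not used. The 8 per-replicate columns of that list were not used, and replicate values were taken from the strongest overlapping peak (at least 1 bp) of each replicate.

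A site was counted for a gene when its summit lay in the gene body extended by 250 kb. Gene bodies and canonical transcripts were those of GENCODE 44 mapped to GRCh37. The percentile is the mid-rank among the 200 protein-coding genes closest in body length. Consensus sequences were exact strings, searched on both strands, each place counted once. No test was made, since the series has 1 condition. Named were the 10 genes, their sites, the strongest site of each with both replicates, and the 5 genes of the pathway list with the most sites. Alternatives changed the extension, the IDR, the replicates used, the number of genes of like length, the windows, the overlap and the assignment of sites. The use of the canonical transcript in place of the gene body was chosen after seeing the data. Counting was tested on simulated data. Python 3.11.15, pandas 2.3.3, numpy 2.4.6 and pysam 0.24.0 were used.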

Additional observations from a re-analysis of the deposited data

How the results depend on the processing

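Of 53 summary values under alternatives, 41 stayed within set bounds and 12 did not. The bounds were 1.5 times for counts and the SD between the single replicates for percentiles and shares. That SD rests on 2 values that were themselves judged by it, so the counts do not measure stability. For the median percentile these were 78.0 and 68.25, both below the 84.5 of the main setting. In the gene bodies alone there were 15 sites in place of 26. With a 500 kb extension the median percentile was 74.5, and 29 of the 40 other pathway genes had a site. The share of all protein-coding genes at that width was not counted, so 29 of 40 cannot be set beside the 47.5% at 250 kb. With an IDR of 0.001 or less there were 13 sites, 7 of them inside gene bodies, 1 gene at or above the 95th percentile and a median percentile of 71.0. In 200 bp windows, 38.5% of the sites held TGACAG, and the share of all sites in windows this short was not counted. A minimum −log10 p of 5 left 77 peaks of replicate 1 and 90 of replicate 2.

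Using as many of the strongest peaks of 1 replicate as there were sites, without replicate 1 or without replicate 2, gave 30 or 24 sites at 9 or 8 genes, 16 or 13 of them in gene bodies, with 3 or 2 genes at or above the 95th percentile. The median percentile was 78.0 without replicate 1 and 68.25 without replicate 2. The share with TGACAG was 46.7% and 58.3%, with no share over all such peaks counted. SEMA3C reached the 95th percentile with the canonical transcript in place of the gene body (95), as it did with 100 genes of like length (96) and with a 500 kb extension (95). The cause was not tested. Of 170 values of single genes, 104 stayed within the same bounds and 66 did not. No paired analysis was possible because only 1 group, the 2 ChIP replicates, has peaks. Depth is unknown, so that a gene without a site cannot be called unbound.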
